A study of Homo sapiens with 6 samples.

Results

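Respiratory complex I is the large enzyme of the inner mitochondrial membrane that takes electrons from NADH and passes them to ubiquinone while pumping protons. Its core subunits are shared with bacteria and hold the flavin, the iron-sulfur clusters and the proton channels. The many accessory subunits surround the core and are needed to assemble or stabilise it. Most subunits are encoded in the nucleus and imported, and the MT-ND subunits are encoded in mitochondrial DNA, so the enzyme draws on 2 genomes.

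The nuclear subunit genes described here are the protein-coding rows of the deposited table whose symbol is NDUFA, NDUFB, NDUFC, NDUFS or NDUFV followed by a number, with an optional L and digit. This rule found 38 of the 60843 genes and used no measured value. NDUFA4 and NDUFA4L2 carry such symbols although NDUFA4 is now counted as a subunit of complex IV, which leaves 36 genes of the enzyme itself. NDUFAB1, the acyl carrier protein that is also a complex I subunit, falls outside the rule and is given separately.

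The cells were SW872-S, a human liposarcoma line, in 3 libraries of cells with a plasmid that overexpresses TP53INP2 (TP53INP2_OE) and 3 libraries labelled NC, which share the line, the medium (DMEM with serum), Trizol extraction and the TruSeq kit. TP53INP2 is an autophagy protein and transcription coactivator, and the study asked about its role in dedifferentiated liposarcoma. The labels do not say what the NC cells carried, how long the plasmid was expressed, or whether libraries came from separate cultures, so p-values measure only the spread between these libraries. The labels name the same line for all 6 libraries, whereas the design text mentions 2 sources of cells that it leaves unexplained.

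TP53INP2 itself had 18.9, 23.4 and 27.1 FPKM in TP53INP2_OE cells, against 10.6, 9.45 and 9.67 FPKM in NC cells (FPKM, the deposited unit, divides the fragments of a gene by its length and by a library total). Its log2 fold change was 1.13 ± 0.12 (SE, limma adjusted p = 0.00282). An exact permutation test gave p = 0.1, the smallest that 3 libraries against 3 allow. Libraries held 16038062 to 17607612 reads assigned to genes, and mitochondrial genes took 3.45 to 3.80% of reads in TP53INP2_OE cells and 2.83 to 2.97% in NC cells. Of 7 mesenchymal markers 4 reached a mean of 0.5 FPKM (VIM, COL1A1, PDGFRB and FN1), and their list summed to 1443 to 1514 FPKM in TP53INP2_OE cells and 1384 to 1464 FPKM in NC cells. Of 7 mature adipocyte markers LPL alone reached that level, and ADIPOQ, LEP and FABP4 had no read. Their list summed to 11.5 to 12.5 FPKM in TP53INP2_OE cells and 12.6 to 13.7 FPKM in NC cells. None of 6 leukocyte markers reached it, with sums of 0.239 to 0.515 FPKM in TP53INP2_OE cells and 0.200 to 0.534 FPKM in NC cells. All 5 endothelial markers did, with sums of 48.2 to 49.9 FPKM in TP53INP2_OE cells and 48.9 to 53.2 FPKM in NC cells. Of 6 epithelial markers KRT8 and KRT18 did, and that list summed to 63.7 to 75.9 FPKM in TP53INP2_OE cells and 81.5 to 83.4 FPKM in NC cells. The adipocyte and epithelial sums were lower in all TP53INP2_OE libraries, and their part in the results below was not tested.

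Of the 38 subunit genes, 37 reached the mean of 0.5 FPKM needed for the test, and 15 of them fell in TP53INP2_OE cells, while 1, NDUFC2, rose. Among all 14791 genes tested, 18.6% fell and 16.4% rose at the same threshold (limma on log2(FPKM + 1), adjusted p under 0.05). The median log2 fold change was -0.15 over the 37 subunit genes and 0.0032 over all genes tested, and 27 of the 37 were below 0 and 10 above. The falls ranged from -0.84 for NDUFS6 to -0.20 for NDUFB10 as differences of log2(FPKM + 1), a scale that shrinks changes of weakly expressed genes. In bulk RNA a lower level per cell and fewer cells with the transcript cannot be told apart.

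The libraries of the 2 groups were fully apart for 24 of the tested subunit genes. Of these, 20 were lower in every TP53INP2_OE library than in any NC library and 4 were higher (NDUFC2, NDUFB4, NDUFA5 and NDUFS1). Over all genes tested, groups were apart in the lower direction for 25.6% and in the higher direction for 25.2%. The other 13 tested subunit genes overlapped between groups.

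**Figure D1:**
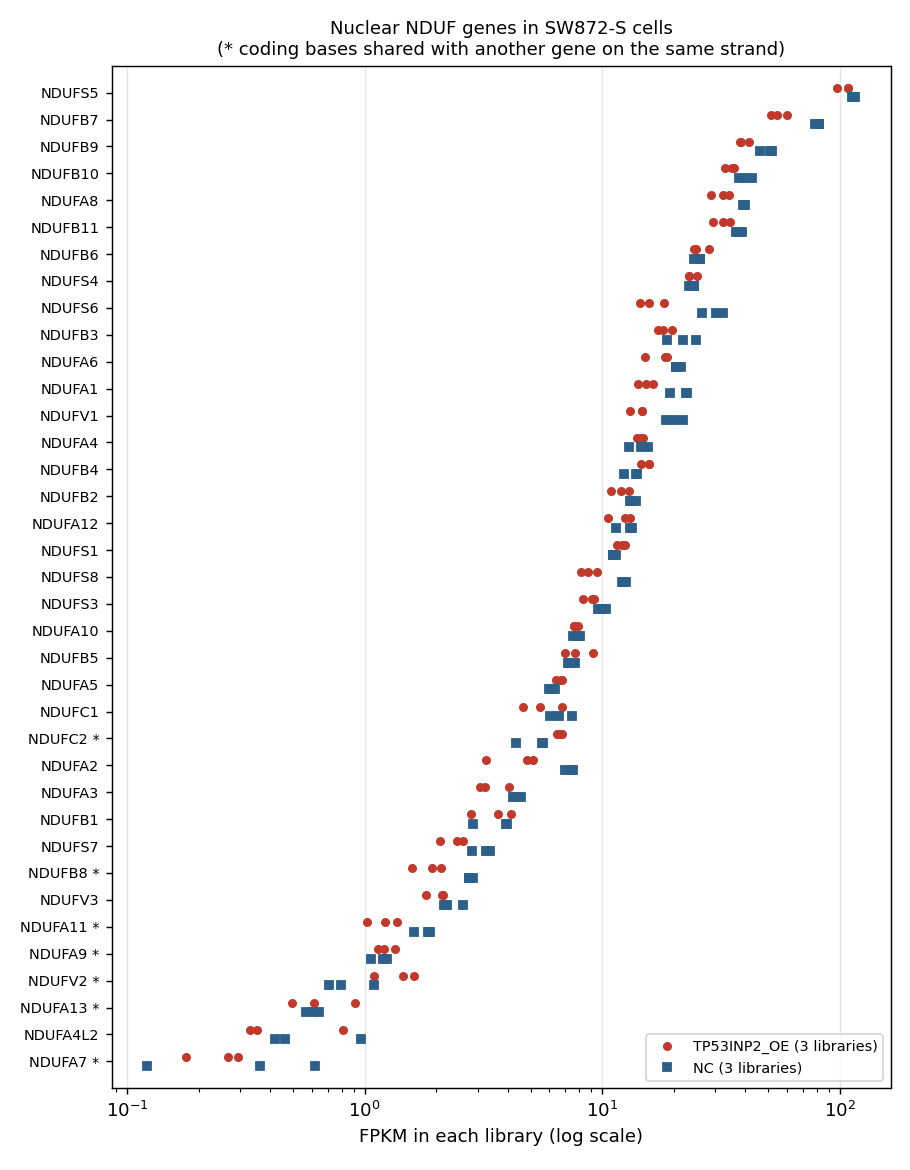
Levels of the subunit genes in every library, as FPKM on a log axis, with TP53INP2_OE libraries beside NC libraries. NDUFS5 is the highest gene and NDUFA7 the lowest, and for most genes the spread between genes is far larger than the difference between groups.

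As differences of log2(FPKM + 1), the 4 largest falls were in genes of the matrix arm and of the distal membrane arm. The order depends on this scale. By the ratio of mean FPKM, the weakly expressed NDUFB8 (0.669) and NDUFA11 (0.676) stood below NDUFB7 (0.685) and NDUFV1 (0.705). NDUFS6 (chromosome 5, 1801400 to 1816605, plus strand, GRCh38), a zinc-binding accessory subunit of the NADH-oxidising N module, had 18.1, 14.4 and 15.7 FPKM in TP53INP2_OE cells, against 32.1, 30.3 and 26.2 FPKM in NC cells. Every TP53INP2_OE library lay below every NC library, and the mean was 0.544 times that of NC cells. The log2 fold change of NDUFS6 was -0.84 ± 0.10 (SE, limma adjusted p = 0.00301).

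NDUFA2 (chromosome 5, 140638740 to 140647785, minus strand), an N-module subunit with a thioredoxin-like fold, had 4.82, 3.25 and 5.10 FPKM in TP53INP2_OE cells, against 7.50, 6.95 and 7.47 FPKM in NC cells. Its groups did not overlap, although TP53INP2_OE replicate 2 stood lower than the other libraries of its group. The log2 fold change of NDUFA2 was -0.64 ± 0.13 (adjusted p = 0.0122), and 83 to 198 reads stood behind each value.

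NDUFB7 (chromosome 19, 14566078 to 14572066, minus strand) is a small protein on the intermembrane-space side of the ND5 part of the membrane arm. It had 59.8, 51.3 and 54.4 FPKM in TP53INP2_OE cells, against 81.5, 78.5 and 81.7 FPKM in NC cells. Its groups were well apart, with a log2 fold change of -0.54 ± 0.06 (adjusted p = 0.00281).

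NDUFV1 (chromosome 11, 67605653 to 67612554, plus strand), the core subunit that binds FMN and NADH and so takes up the electrons, had 14.8, 13.1 and 14.7 FPKM in TP53INP2_OE cells, against 21.9, 20.1 and 18.5 FPKM in NC cells. The NC libraries spread more widely than the TP53INP2_OE libraries, and the groups did not overlap. The log2 fold change of NDUFV1 was -0.47 ± 0.07 (adjusted p = 0.00493).

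In the other direction, NDUFC2 (chromosome 11, 78068297 to 78079862, minus strand), a membrane-arm subunit of the ND2 part, had 6.63, 6.48 and 6.78 FPKM in TP53INP2_OE cells, against 5.57, 5.64 and 4.34 FPKM in NC cells. Its groups did not overlap, and the log2 fold change was 0.31 ± 0.09 (adjusted p = 0.0360). The call was lost without any 1 of the 3 TP53INP2_OE libraries and without NC replicate 1, with adjusted p of 0.0541 to 0.0900. In the annotation, 23.1% of the coding bases of NDUFC2 lie in no other gene of the same strand.

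The promoters of the falling genes are shown because nuclear subunit genes are known targets of the transcription factors NRF1, GABP (an ETS factor) and YY1. RefSeq windows of 300 bases (250 before the start and 50 after it) were matched by symbol for 31 of the 38 genes. Among those without one were NDUFS5, NDUFA4, NDUFB9, NDUFA4L2, NDUFB5 and NDUFC2. The 250 bases before the start follow, on the gene's strand, for 3 falling genes that hold an NRF1 or ETS motif wholly before the start. NDUFS7, which also holds an NRF1 motif there, is not shown because its window lies inside the gene's interval in the deposited table. They are NDUFS6 (RefSeq GRCh38.p14, chr5:1801157-1801406, plus strand), NDUFB7 (chr19:14572067-14572316, minus strand) and NDUFA1 (chrX:119871582-119871831, plus strand). Capitals mark the NRF1 motif GCGCATGCG in NDUFS6 and the ETS motif CCGGAAG, or its reverse complement, in the other two.
NDUFS6: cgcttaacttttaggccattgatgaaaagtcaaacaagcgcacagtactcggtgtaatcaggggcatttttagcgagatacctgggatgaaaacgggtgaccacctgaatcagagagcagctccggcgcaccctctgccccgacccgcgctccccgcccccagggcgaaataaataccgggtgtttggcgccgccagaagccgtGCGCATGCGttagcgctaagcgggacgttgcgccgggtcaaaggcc
NDUFB7: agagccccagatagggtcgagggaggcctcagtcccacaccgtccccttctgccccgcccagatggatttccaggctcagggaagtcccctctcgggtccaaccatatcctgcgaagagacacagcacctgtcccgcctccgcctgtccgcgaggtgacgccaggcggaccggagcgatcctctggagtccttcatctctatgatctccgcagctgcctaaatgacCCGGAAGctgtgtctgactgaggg
NDUFA1: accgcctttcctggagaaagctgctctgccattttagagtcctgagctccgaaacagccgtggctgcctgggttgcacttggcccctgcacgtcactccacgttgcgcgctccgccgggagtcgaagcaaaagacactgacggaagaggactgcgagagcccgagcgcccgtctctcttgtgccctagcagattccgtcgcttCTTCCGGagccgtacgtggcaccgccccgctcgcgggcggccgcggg

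The motif began 46 bases before the start in NDUFS6, 24 in NDUFB7 and 47 in NDUFA1. On both strands of the 300-base window, the NRF1 motif was held by 5 of 31 subunit genes (16.1%), against 2.34% of 27305 genes with a window. The ETS motif was held by 5 of 31 (16.1%), against 12.2% of all. The YY1 motif AAGATGGC was held by 7 of 31 (22.6%), against 3.52% of all. In these 7 genes it lay on the gene's strand, beginning 11 to 26 bases after the start. The ERR motif TCAAGGTCA was held by none of the 31 and by 0.43% of all. None of these motifs overlapped another of the 4 kinds in NDUFS6, NDUFB7 or NDUFA1. At least 1 of the first 3 motifs was held by 16 of 31 (51.6%), against 16.6% of all genes. Among the genes that fell, 8 of the 14 with a window held one, and among the rest 8 of 17 did. A match is a description of these letters only. The windows of the subunit genes had a median GC content of 61.3%, against 58.3% for all.

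The 7 core subunits encoded in the nucleus include those that carry the flavin and the iron-sulfur clusters. Of the 7, 3 fell and none rose, with a median log2 fold change of -0.15. Among all genes tested 18.6% fell and 16.4% rose. With GC content and gene length fitted out, 1 of the 7 was lower, with a median of -0.05. Besides NDUFV1, the cluster carriers NDUFS8 and NDUFS7 of the Q module fell. NDUFS8 had 8.72, 9.50 and 8.18 FPKM in TP53INP2_OE cells, against 12.6, 12.3 and 12.1 FPKM in NC cells (log2 fold change -0.45 ± 0.06, adjusted p = 0.00325). NDUFS7, whose cluster hands electrons to ubiquinone, had 2.60, 2.08 and 2.45 FPKM in TP53INP2_OE cells, against 3.37, 3.26 and 2.82 FPKM in NC cells (-0.30 ± 0.09, adjusted p = 0.0362). In both genes all TP53INP2_OE libraries lay below all NC libraries, by a narrow margin in NDUFS7.

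No other core subunit passed. NDUFS3, of the Q module, had 9.24, 9.09 and 8.33 FPKM in TP53INP2_OE cells, against 9.98, 9.58 and 10.4 FPKM in NC cells (log2 fold change -0.15, adjusted p = 0.0667). Its groups were apart without passing the threshold. NDUFS1, the largest subunit and a carrier of several clusters, had 12.5, 12.1 and 11.6 FPKM in TP53INP2_OE cells, against 11.1, 11.4 and 11.1 FPKM in NC cells (0.10, adjusted p = 0.116). Its 3 TP53INP2_OE libraries were all higher, opposite to its N-module partner NDUFV1. With GC content and gene length fitted out, both genes were below 0 (NDUFS1 -0.055, NDUFV1 -0.24). NDUFV2, the partner of NDUFV1 in the flavoprotein part, had 1.09, 1.61 and 1.46 FPKM in TP53INP2_OE cells, against 0.792, 0.709 and 1.10 FPKM in NC cells (0.35 ± 0.13, adjusted p = 0.0717). Its groups overlapped, and 34 to 75 reads stood behind each value. On the recovered reads, limma's voom gave NDUFV2 a log2 fold change of 0.69 with an adjusted p of 0.0288.

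Of the 29 accessory subunits, 28 were tested, 12 fell and 1 rose, with a median log2 fold change of -0.18. By place in the enzyme, 4 of 9 tested genes of the N module fell (NDUFS6, NDUFA2, NDUFV1 and NDUFA6, a protein of the LYR family that binds the acyl carrier protein, -0.25). In the Q module, which leads electrons to ubiquinone, 2 of 6 fell (NDUFS8 and NDUFS7). In the ND1 part of the membrane arm 2 of 3 fell, NDUFA8 (-0.31) and NDUFA3 (-0.28). In the ND2 part 2 of 6 fell, NDUFA1 (-0.47) and NDUFA11 (-0.34), and NDUFC2 rose. In the ND4 part 2 of 6 fell, NDUFB11 (-0.23) and NDUFB10 (-0.20). In the ND5 part, at the far end of the pump, 3 of 5 fell, NDUFB7, NDUFB8 (-0.41) and NDUFB9 (-0.33), and all 5 had a log2 fold change below 0. On values as deposited, falls were thus found in every module, beside 18.6% lower among all genes tested. With GC content and gene length fitted out, 3 genes of the N module and 2 of the ND5 part were lower. The ND1 and ND2 parts then had 1 each, and the Q module and the ND4 part had 0. No test was made of a difference between modules.

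Of the members not called, NDUFB3 (-0.24), NDUFC1 (-0.22), NDUFB2 (-0.16), NDUFV3 (-0.14) and NDUFS5 (-0.13) were the other accessory genes with the lowest values. NDUFA12, NDUFB1, NDUFA10, NDUFS4, NDUFB6, NDUFA9, NDUFA13 and NDUFB5 lay between -0.06 and 0.09, with overlapping groups. NDUFS4, a matrix-arm subunit whose loss causes Leigh syndrome, had an adjusted p of 0.936 and a log2 fold change of -0.01, beside the -0.84 of NDUFS6 in the same module. NDUFA5 (0.10, adjusted p = 0.146) and NDUFB4 (0.19, adjusted p = 0.0507) had all TP53INP2_OE libraries above all NC libraries without passing. NDUFA7 was not tested, with 0.266, 0.293 and 0.177 FPKM in TP53INP2_OE cells, against 0.617, 0.122 and 0.363 FPKM in NC cells, and its 3 to 14 reads per library allow no comparison.

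**Figure D2:**
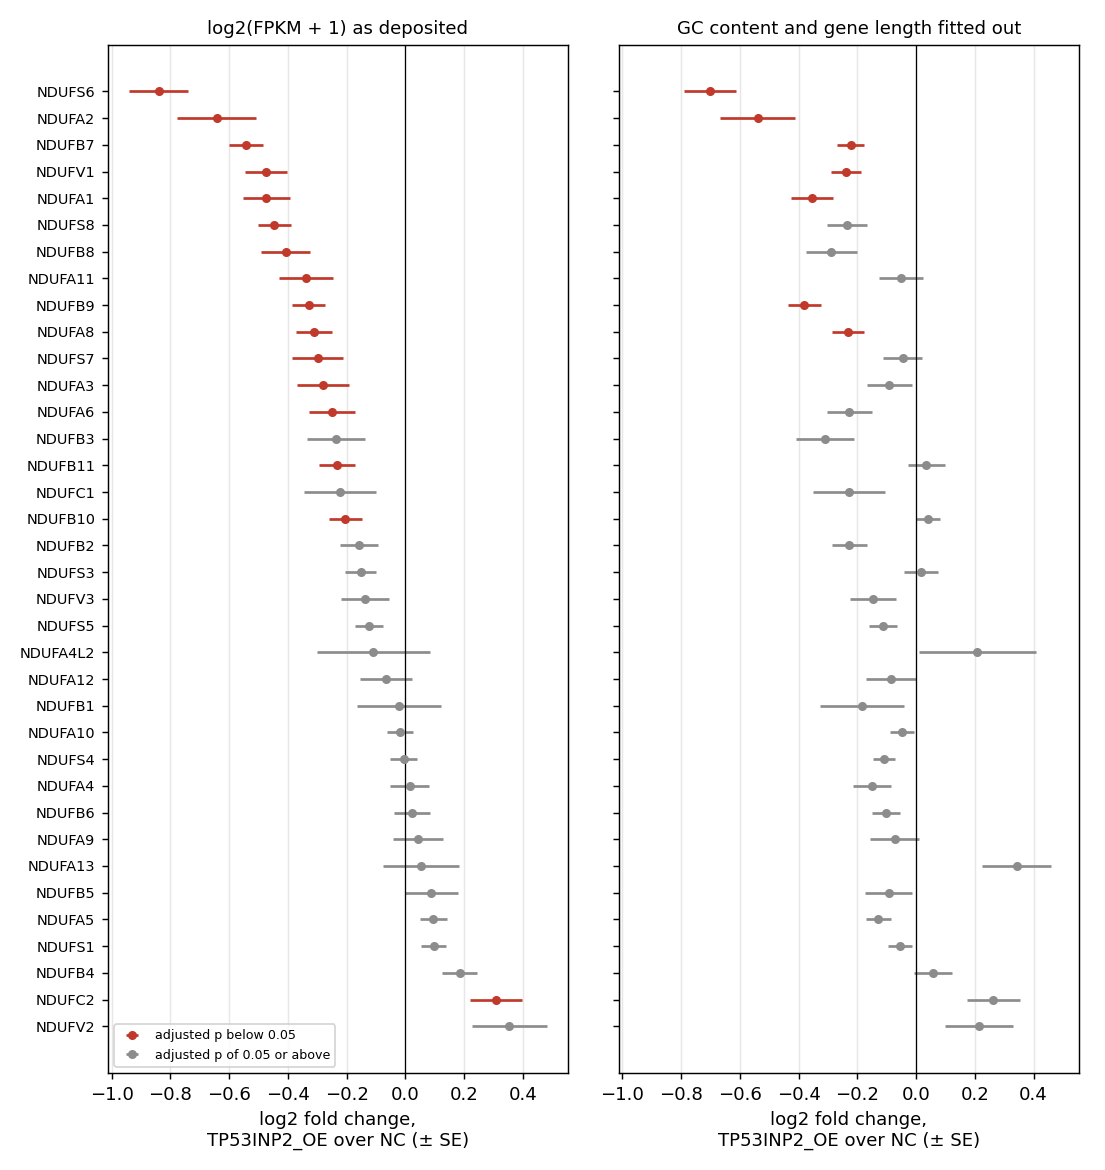
Log2 fold change of tested subunit genes, TP53INP2_OE over NC, with its standard error as a bar and genes past the threshold in red, on log2(FPKM + 1) as deposited (left) and with the dependence on GC content and gene length removed (right). In the left panel 15 red genes lie below 0 and NDUFC2 above it, and in the right panel 7 red genes remain, all below 0.

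Outside the enzyme, NDUFA4 had 14.8, 14.1 and 14.6 FPKM in TP53INP2_OE cells, against 14.6, 13.0 and 15.6 FPKM in NC cells (0.01, adjusted p = 0.888). NDUFA4L2, its paralogue that is induced in hypoxia, had 0.330, 0.809 and 0.352 FPKM in TP53INP2_OE cells, against 0.962, 0.463 and 0.420 FPKM in NC cells (-0.11, adjusted p = 0.700). Neither gene's groups were apart, and NDUFA4L2 had 1 high library in each group. The acyl carrier protein NDUFAB1 had 35.6, 40.0 and 35.1 FPKM in TP53INP2_OE cells, against 34.4, 37.9 and 35.7 FPKM in NC cells (0.03, adjusted p = 0.711).

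GC content moved with these results. Over the 37 tested genes, the log2 fold change and the GC content of the longest transcript had a Spearman rho of -0.66, given as a description of genes that share the same 6 libraries. Over all 11278 tested protein-coding genes it was -0.78. Among subunit genes with a GC content of at least 50%, 13 of 17 fell and none rose, with a median of -0.31. Among all 5081 protein-coding genes of that kind 46.8% fell and 1.52% rose, with a median of -0.20. Among subunit genes under 50% GC, 2 of 20 fell (NDUFB9 and NDUFA6) and 1 rose, with a median of -0.01. Of all 6189 such genes 3.39% fell and 34.9% rose, with a median of 0.13.

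**Figure D3:**
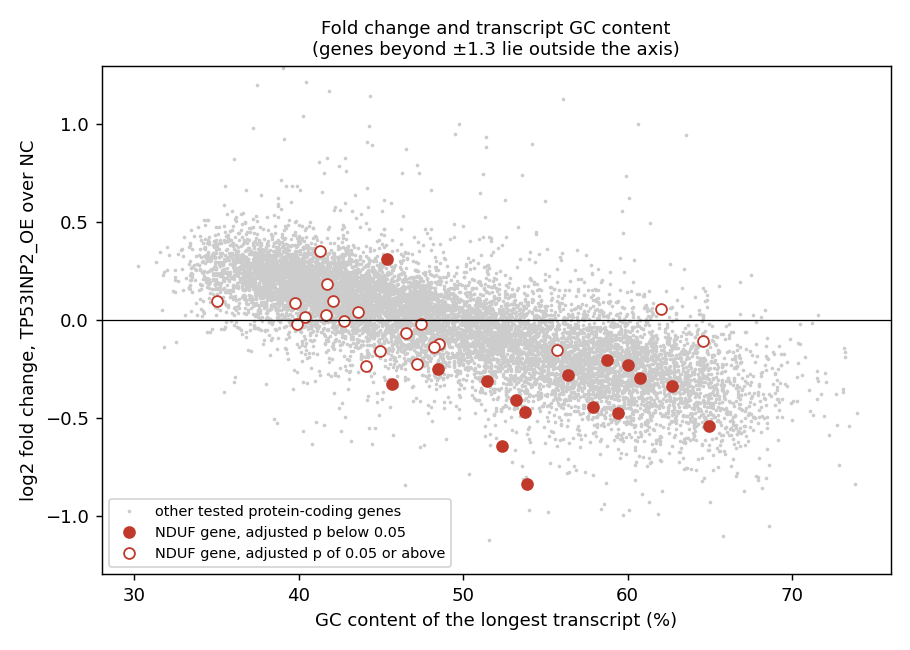
Log2 fold change, TP53INP2_OE over NC, against the GC content of the longest transcript in percent, for the tested subunit genes over all tested protein-coding genes. Subunit genes with more than 50% GC lie mostly below 0, along the trend of all genes, and NDUFS6 and NDUFA2 lie below that trend.

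After a smooth dependence on GC content and gene length had been fitted out of each library, 7 of the 37 subunit genes were called lower and none higher. These were NDUFS6 (-0.70, adjusted p = 0.0105), NDUFA2 (-0.54, adjusted p = 0.0446), NDUFB9 (-0.38, adjusted p = 0.0147), NDUFA1 (-0.35, adjusted p = 0.0305), NDUFV1 (-0.24, adjusted p = 0.0371), NDUFA8 (-0.23, adjusted p = 0.0449) and NDUFB7 (-0.22, adjusted p = 0.0334). Over all genes in that fit, 5.88% were lower and 4.53% higher. The median over the subunit genes was -0.11 and the rho with GC was 0.06. The calls of NDUFS8, NDUFB8, NDUFA11, NDUFS7, NDUFA3, NDUFA6, NDUFB11 and NDUFB10 were lost, as was that of NDUFC2 (0.26, adjusted p = 0.119). Of these, NDUFB8 (-0.29, adjusted p = 0.0841), NDUFS8 (-0.24, adjusted p = 0.0781) and NDUFA6 (-0.23, adjusted p = 0.115) had corrected values as low as those of genes still called. NDUFA3 had -0.09, NDUFA11 and NDUFS7 had -0.05 each, and NDUFB11 and NDUFB10 had 0.04 each. This fit was also made on log2(FPKM + 1), which shrinks changes of weakly expressed genes such as NDUFA3, NDUFA11 and NDUFS7. By voom on reads, without a GC fit, NDUFA3 had -0.35, NDUFA11 -0.57, NDUFS7 -0.41, NDUFB11 -0.23 and NDUFB10 -0.21. What the scale does to the corrected values was not tested. Whether the GC dependence is technical or part of the response was not tested.

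The subunit genes are short, with coding lengths of 210 to 2223 bases and a median of 489, against 1413 for all tested protein-coding genes, while their median GC content of 48.5% was close to the 48.3% of all. Of the 31 subunit genes with at most 800 coding bases, 14 fell and 1 rose, with a median of -0.20. Among all 2418 protein-coding genes that short, 27.0% fell and 15.8% rose, with a median of -0.05. With coding length fitted out too, the same 7 genes were lower, at a background of 9.84%. NDUFC2 (0.32, adjusted p = 0.0240) and NDUFA13 (0.41, adjusted p = 0.0142) were then called higher, at a background of 8.66%. NDUFA13 had only 23 to 40 reads per library, and its groups overlapped. Its log2 fold change was 0.05 as deposited (limma adjusted p = 0.782) and 0.10 by voom (adjusted p = 0.827). Within the 37 genes the log2 fold change had a Spearman rho of 0.06 with coding length and -0.26 with level, as descriptions.

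Leaving out 1 library at a time left 9 to 15 subunit genes lower. The count of 9 came without NC replicate 1, where 1811 of all genes tested were called lower, beside 2753 in the full fit. Called in the full fit and in all 6 such fits were NDUFA1, NDUFA2, NDUFA8, NDUFB7, NDUFB8, NDUFB9, NDUFS6, NDUFS8 and NDUFV1.

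The levels of the subunit genes spanned a wide range, from 109.6 FPKM for NDUFS5, an intermembrane-space protein, to 0.306 FPKM for NDUFA7, both as means of the 6 libraries. NDUFS5 had 108.7, 108.3 and 97.7 FPKM in TP53INP2_OE cells, against 114.1, 116.1 and 112.9 FPKM in NC cells (-0.13, adjusted p = 0.0846). The subunits assemble in equal number, so the levels per gene were set beside the annotation. In 7 genes (NDUFC2, NDUFB8, NDUFA11, NDUFA9, NDUFV2, NDUFA13 and NDUFA7) part of the coding bases also lies in another gene of the same strand, with 14.8 to 63.1% unshared. Their median level was 1.20 FPKM (0.306 to 5.91), against 14.4 FPKM (0.556 to 109.6) in the other 31 genes. Of the 8 lowest members 6 were among them, by FPKM and also by reads per coding kilobase. Of the 9 genes in the table that share their strand and exons, 7 had no read in any library. What this sharing does to the levels was not tested, and the sources used here do not give how reads in shared exons were assigned. Among the 31 genes that share no coding base 13 fell and none rose, and among the 6 tested that do, 2 fell and 1 rose. The shares over all genes tested were 18.6% lower and 16.4% higher.

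The sum over the 36 nuclear genes of the enzyme was 601.6, 573.4 and 564.7 FPKM in TP53INP2_OE cells, against 691.4, 690.5 and 677.7 FPKM in NC cells. The 2 groups did not overlap, with means of 579.9 ± 19.3 FPKM in TP53INP2_OE cells and 686.5 ± 7.64 FPKM in NC cells (SD, n = 3 each), a ratio of 0.845. Core genes summed to 72.9 ± 2.32 FPKM in TP53INP2_OE cells and 84.6 ± 1.87 FPKM in NC cells, a ratio of 0.861. Accessory genes summed to 507.0 ± 17.8 FPKM in TP53INP2_OE cells and 601.9 ± 6.12 FPKM in NC cells, a ratio of 0.842. Core and accessory sums were each lower in TP53INP2_OE cells, and the difference between their ratios was not tested. Without NDUFS5, the highest gene, the sum of the rest was 475.0 ± 15.6 FPKM in TP53INP2_OE cells and 572.2 ± 6.51 FPKM in NC cells.

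The subunits encoded in mitochondrial DNA went the other way. The 7 MT-ND genes, which form the proton-pumping membrane core, summed to 12263, 13771 and 11522 FPKM in TP53INP2_OE cells, against 9754, 9878 and 10139 FPKM in NC cells, a ratio of means of 1.26. Of the 7, 5 rose and none fell, against 16.4% higher and 18.6% lower among all genes tested. MT-ND4 had 4499, 5161 and 4577 FPKM in TP53INP2_OE cells, against 3409, 3432 and 3456 FPKM in NC cells (log2 fold change 0.46 ± 0.06, adjusted p = 0.00325). MT-ND6 (0.33, adjusted p = 0.0184), MT-ND2 (0.30, adjusted p = 0.00637), MT-ND5 (0.28, adjusted p = 0.00698) and MT-ND1 (0.23, adjusted p = 0.0118) also rose. MT-ND4L (0.34, adjusted p = 0.0945) and MT-ND3 (-0.21, adjusted p = 0.179) did not pass, and MT-ND3 was lower in all 3 TP53INP2_OE libraries. In the fit that removes GC content and gene length, 4 of the 7 were higher. With coding length removed too, 5 were higher and MT-ND3 was lower (-0.36, adjusted p = 0.0200). Over all genes, 4.53% were higher in the first of these fits, and 8.66% were higher and 9.84% lower in the second. Tested without the 0.5 FPKM filter, 0 of the 7 were called higher. With replicate number added to the GC and gene length fit, 1 was.

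The ratio of the mitochondrial to the nuclear sum was 20.4, 24.0 and 20.4 in TP53INP2_OE cells, against 14.1, 14.3 and 15.0 in NC cells. Its groups did not overlap, and its means were 21.6 ± 2.09 in TP53INP2_OE cells and 14.5 ± 0.446 in NC cells (SD, n = 3 each). TP53INP2_OE replicate 2 had the highest ratio and also the highest share of mitochondrial reads. The sums of both genomes depend on the share of reads from mitochondrial RNA, and its part in the ratio was not tested.

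**Figure D4:**
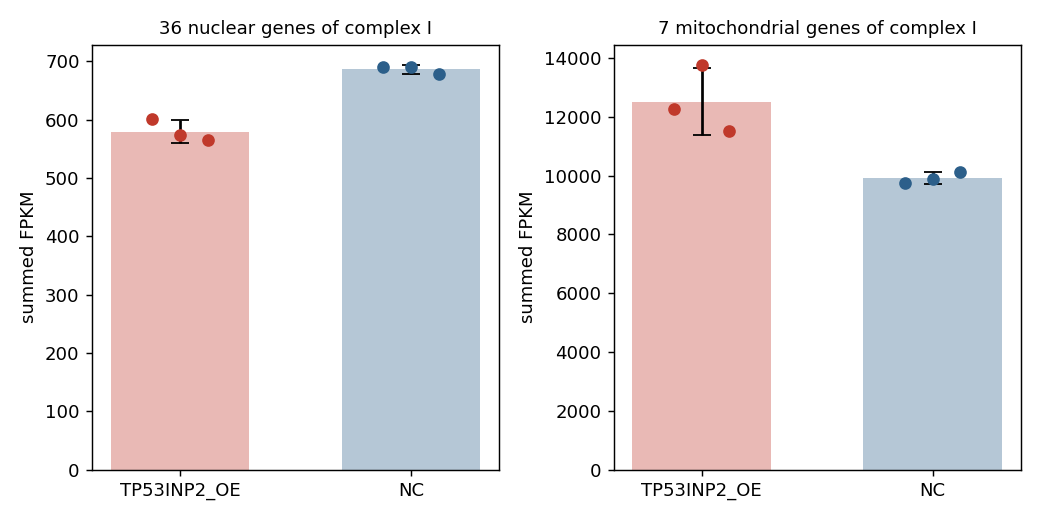
Summed FPKM of the 36 nuclear genes (left) and the 7 mitochondrial genes (right) of complex I, TP53INP2_OE beside NC, with bars for the mean, error bars for the SD and points for the 3 libraries. The nuclear sum is lower in all 3 TP53INP2_OE libraries, and the mitochondrial sum is higher in all 3.

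The factors that assemble the enzyme are not part of the finished complex. Of 19, 6 fell and 2 rose, against 18.6% and 16.4% of all genes tested, with a median log2 fold change of -0.10. The largest falls were in ECSIT (-0.37, adjusted p = 0.00290), DMAC2 (-0.36, adjusted p = 0.0106), NDUFAF8 (-0.34, adjusted p = 0.00466) and ACAD9 (-0.30, adjusted p = 0.00882). ECSIT and ACAD9 act together in an early membrane-arm assembly complex. TMEM126B, of the same assembly complex, rose (0.24, adjusted p = 0.0429), as did NDUFAF5, a methyltransferase that hydroxylates NDUFS7 (0.26, adjusted p = 0.0294). In the fit that removes GC content and gene length, 2 of the 19, ACAD9 (-0.19) and DMAC1 (-0.40), were lower and none higher. Over all genes in that fit, 5.88% were lower and 4.53% higher. ECSIT (-0.086, adjusted p = 0.188), DMAC2 (-0.24, adjusted p = 0.0584) and NDUFAF8 (-0.034, adjusted p = 0.775) were then not called.

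Of 9 transcription factors and coactivators of nuclear mitochondrial genes, 8 were tested. Of the 8, 2 fell and 2 rose, against 18.6% and 16.4% of all genes tested. ESRRA, an orphan receptor that acts on respiratory genes, fell (-0.40, adjusted p = 0.00419), and so did PPRC1, a coactivator of the PGC-1 family (-0.15, adjusted p = 0.0235). GABPA, the DNA-binding part of GABP, rose (0.29, adjusted p = 0.0131), and TFAM, which acts on mitochondrial DNA, rose too (0.18, adjusted p = 0.0403). NRF1 (-0.12, adjusted p = 0.165), YY1 (0.03, adjusted p = 0.572), GABPB1 (0.10, adjusted p = 0.216) and PPARGC1B (0.02, adjusted p = 0.895) did not pass. PPARGC1A was below the filter, with 3 to 14 reads per library. Transcript GC content was 63.2% in ESRRA and 56.8% in PPRC1, against 36.4% in GABPA and 38.4% in TFAM. None of the 8 was called in the fit that removes GC content and gene length.

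Counts were also made for nuclear genes of the other respiratory complexes. Of 40 genes of complexes II to V, 16 fell and 1 rose, with a median of -0.12, and after the GC and length fit 15 were lower and none higher, with a median of -0.16. Of 77 tested mitochondrial ribosomal protein genes, 29 fell and 14 rose, with a median of -0.16, and after that fit 19 were lower and 1 higher. The shares over all genes were 18.6% lower and 16.4% higher as deposited, and 5.88% lower and 4.53% higher after that fit. No difference between these lists and complex I was tested.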

How the data were processed

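RNA sequencing of 6 SW872-S libraries was analysed, with groups taken from the sample titles. Per the file headers, the authors deposited FPKM values for 60843 genes with lengths and positions. Bowtie 0.12.2 and the builds GRCh38 and mm8 are named in the submitters' processing notes. The sources used here give neither the counting step nor its use of strand. All 38 subunit genes were found by ID on the same chromosome in GENCODE 29 (GRCh38), 89.5% of them with the same start or end. FPKM times length was divided by its smallest non-zero value in each library, taken to stand for a single read. This gave whole numbers for 100% of values (tolerance 0.01), and these recovered reads show the depth.

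Genes averaging at least 0.5 FPKM were tested as log2(FPKM + 1) with limma 3.58.1 (R 4.3.3, trend, Benjamini-Hochberg over 14791 genes, threshold 0.05), checked on simulated data. For the GC fit, natural splines with 5 degrees of freedom on transcript GC content and log2 gene length were fitted to each library's deviations from gene means and removed. No 2 libraries agreed within sampling noise (chi-square per degree of freedom 2.58 to 4.97 within groups). The members, lists and tests were chosen with earlier results of these data known. The named genes were the 4 largest falls and rises past the threshold, the core subunits, NDUFA4, NDUFA4L2, genes below the filter, up to 4 per direction of the MT-ND and assembly lists, and all listed factors. NDUFS4, NDUFS5, MT-ND3, MT-ND4L, DMAC1 and other members given by fold change alone were added for completeness. Alternatives changed the pseudocount (0.1), the filter (none, or 5 FPKM), the scaling (TPM, quantile), the values tested (limma voom on reads), the composition fit, a replicate block and the libraries. Promoter sequences are from RefSeq. One subunit gene is not reported here by name or in the plots of single genes, and counts, medians and sums include it.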

Additional observations from a re-analysis of the deposited data

How the results depend on the processing

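The median of the subunit genes stayed below 0 in each alternative run, and NDUFA2 and NDUFS6 were called lower in each. With GC content and gene length fitted out, 659 of all genes were higher and 855 lower, of subunit genes 0 and 7, of assembly factors 0 and 2. NDUFB11 (0.035), NDUFB10 (0.041), NDUFS3 (0.017), NDUFA4L2 (0.21), NDUFA4 (-0.15), NDUFB6 (-0.10), NDUFA9 (-0.073), NDUFB5 (-0.094), NDUFA5 (-0.13) and NDUFS1 (-0.055) then changed sign. With coding length too, counts were 979 and 1112, 2 and 7, and 1 higher assembly factor, the median was -0.061, and NDUFA11 (0.0033), NDUFS7 (0.025), NDUFA3 (0.030), NDUFB11 (0.081), NDUFB10 (0.075), NDUFS3 (0.043), NDUFA4L2 (0.33), NDUFA4 (-0.047), NDUFB6 (-0.066), NDUFA9 (-0.041), NDUFB5 (-0.061), NDUFA5 (-0.062) and NDUFS1 (-0.047) changed sign. The cause was not tested. Unfiltered, 0 subunit genes were higher (NDUFC2, adjusted p = 0.0984) and 9 lower, and 0 MT-ND genes and 0 assembly factors higher. The 5 FPKM filter, TPM, quantile scaling and voom each gave 2 higher subunit genes (NDUFC2 with NDUFB4, or with NDUFV2 by voom), and NDUFS4 became 0.011 by TPM and 0.047 by quantiles. By TPM 2661 genes were higher and 2550 lower, by quantiles 2712 and 2497.

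The labels do not say whether equal replicate numbers mark paired libraries. Correlations of deviations from group means were 0.0107 to 0.0170 for equal numbers and -0.0272 to 0.0150 for unequal numbers. Values this near 0 cannot decide whether libraries were paired. With a replicate block 1 subunit gene was higher (NDUFB4, adjusted p = 0.0293, while NDUFC2 lost its call at 0.0607) and 12 lower, and 1 assembly factor higher. With block, GC content and gene length, counts were 267 and 401, subunit genes 0 and 2, MT-ND 1 higher, and assembly factors 0 higher and 1 lower, with the same 10 sign changes as without the block. Leaving out 1 library gave 1454 to 2216 higher and 1811 to 2592 lower genes, 0 to 1 higher (NDUFC2, or NDUFV2 without TP53INP2_OE replicate 1) and 9 to 15 lower subunit genes, and 0 to 2 higher assembly factors. Values then crossed 0 in NDUFA12 (-0.13 to 0.018), NDUFB1 (-0.14 to 0.097), NDUFA10 (-0.046 to 0.0017), NDUFS4 (-0.043 to 0.014), NDUFA4 (-0.052 to 0.070), NDUFB6 (-0.038 to 0.061), NDUFA13 (-0.046 to 0.13) and NDUFB5 (-0.0077 to 0.17). Depth limits NDUFA7, NDUFA4L2, NDUFA13 and NDUFV2, with at most 75 reads per library.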

Other observations

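Reads on pseudogenes of the subunit genes were few. Of 54 NDUF pseudogenes listed, 20 had a read, and together they held 0.189 to 0.223% of the subunit genes' reads in TP53INP2_OE libraries and 0.118 to 0.201% in NC libraries. NDUFV2P1 had 11 to 22 reads per library, beside 34 to 75 reads for NDUFV2. Whether reads were moved between these copies was not tested.

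The spread between libraries of 1 group was small for most subunit genes, with a median coefficient of variation over the 37 tested genes of 8.01% in TP53INP2_OE cells and 6.05% in NC cells. Reads per subunit gene ranged from a mean of 7.17 for NDUFA7 to 3089 for NDUFB9, and 5 of the 38 genes had a mean under 100 reads.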
